A study of Mus musculus with 12 samples.

Results

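The genes described here were on in every parental culture and near 0 in every culture labelled as an Nfib knockout. They were selected on the measured values. A gene entered when it had at most 3 counts in each of the 6 libraries whose titles say KO and at least 10 CPM (counts per 1000000 counts of the library) in each of the 6 LM1 and LM9 libraries. Symbols of keratins, serpins, collagens, integrins, cadherins, claudins, chemokines and other large families were then left out, with Adm and Ocln. The rule kept 42 of 18278 genes, out of 48 before the families were dropped and out of 8407 genes at 10 CPM or more in all parental libraries. The 6 genes dropped were Ocln, Cldn3, Cldn4, Krtcap3, Adm and Cxcl2, and Krtcap3 went only because its symbol begins like that of a keratin. The mirrored rule, on in the libraries labelled knockout and at most 3 counts in LM1 and LM9, found 173 genes.

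The parental lines LM1 and LM9 came out of lung metastases in NOD/SCID mice after piggyBac transposon mutagenesis of HR1, a non-metastatic line from a mammary tumour of a transgenic mouse with PIK3CA H1047R driven by the CAG promoter. All 4 groups share that tumour, its transgene and the transposon system. The groups titled Nfib KO were made from each line with Cas9 and guide RNAs against Nfib, and single-cell clones screened by immunoblot were pooled, so each is a mixture of clones. RNA-seq was done on tumourspheres, which are clusters grown in non-adherent plates, after 6 days at 10000 cells per mL with EGF and basic FGF at 20 ng per mL each, in 3 libraries for each of the parental lines (LM1, LM9) and for each line's knockout (LM1 Nfib KO, LM9 Nfib KO). The labels do not say that replicates were separate cultures, so p-values measure the spread between libraries, which may be technical.

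Epithelial cells, from which mammary cancers arise, hold together through junction proteins at their sides and divide their surface into an apical and a basal face with polarity kinases and scaffolds. Transcription factors and RNA-binding proteins keep this state. Epithelial cells can also secrete acute phase proteins, protease inhibitors and parts of innate defence, but such products are not particular to them. Cells of mesenchymal type lack many of the junction proteins and carry other adhesion and matrix genes.

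Library totals ran from 29249075 to 37162594 counts, so the 3 counts of the rule stood for 0.0807 to 0.103 CPM, a limit that covers counting error only. Nfib itself was at 98.9 to 228 CPM in LM1 and LM9 and at 251 to 273 CPM in the libraries titled KO, so its mRNA does not check those titles, and they are called the libraries labelled knockout. The library labelled LM9 replicate 1 stood with LM1. Across all genes its log2 values correlated with LM1 at r = 0.998 in each pairing and with LM9 replicates 2 and 3 at r = 0.972 to 0.974, and in 39 of the 42 selected genes it lay nearer LM1 than the other LM9 libraries. Genes are not independent replicates, so these r are descriptions. Results on LM9 are given with and without that library.

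Cell-type markers moved with the titles. Of 13 luminal epithelial markers tested, 11 were lower and 2 higher in the libraries labelled knockout (limma-voom adjusted p under 0.05, averaged over both lines), and their summed level was 972 to 1580 CPM in the parental libraries against 217 to 227 CPM. Krt18, a defining luminal keratin, had at most 4 counts in a library labelled knockout and Cldn3 had 0. Kit, of the same luminal list, went the other way, with 0 counts in all parental libraries. Of 15 fibroblast and mesenchymal markers 12 were higher and 3 lower, with Col1a2 and Snai2 at 0 counts in all parental libraries, but their summed level was higher in the parental libraries, 11989 to 15201 CPM against 7968 to 8243 CPM. Most of that sum was Vim, vimentin, at 2799 to 4584 CPM against 5706 to 5908 CPM, and Fn1, fibronectin, at 6954 to 11763 CPM against 206 to 218 CPM. The kidney tubule markers were 4 of 4 higher, with summed levels of 0.410 to 0.873 CPM in the parental libraries and 1092 to 1240 CPM in the others, of which Aqp2, an aquaporin, made up 1081 to 1229 CPM. Endothelial markers were 3 of 5 higher and 1 lower (summed level 85.9 to 141 CPM against 440.2 to 456 CPM), and basal and myoepithelial ones 4 of 6 higher and 2 lower (2.63 to 22.4 CPM against 22.4 to 24.2 CPM). Macrophage and leukocyte markers were 1 of 4 higher and 3 lower (513 to 539 CPM against 142 to 153 CPM), and both adipocyte markers were lower (4.04 to 8.38 CPM against 0.439 to 0.915 CPM). Schwann and melanocyte markers other than the selected gene Mbp were 1 of 5 higher and 1 lower, and with Mbp they summed to 1968 to 2384 CPM against 29.3 to 32.9 CPM. Nearly all of the parental sum was Gpnmb, a transmembrane glycoprotein, at 1915 to 2313 CPM against 8.69 to 9.58 CPM. In all genes tested, 40.5% were lower and 46.3% higher. The part of these marker differences in the pattern of the selected genes was not tested, and in bulk libraries fewer cells of a type and less RNA per cell cannot be told apart.

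All 42 genes were found in the annotation (GENCODE M21 on GRCm38, the assembly of mm10), 41 as protein-coding and Trerf1 as a processed transcript. They lay on 18 chromosomes, with at most 5 on any, on chromosomes 1 and 8. The 6 parental libraries held 464317 counts of these genes and the 6 labelled knockout 153. Their summed level was 2620 to 2657 CPM in LM1 and LM9 replicate 1, 2175 and 2247 CPM in LM9 replicates 2 and 3, and 0.572 to 0.831 CPM in the libraries labelled knockout, which is 20 to 30 counts for the whole set. Since the rule chose this gap, it is a description. Of the 42, 8 had 0 counts in all 6 of those libraries (Amigo2, Scara3, Cyba, Trerf1, AI661453, Bend4, Prkcz and Ptx3), 19 had 1 to 3 counts summed over the 6 and 15 had more, and 8 reached 3 counts in a library.

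**Figure D1:**
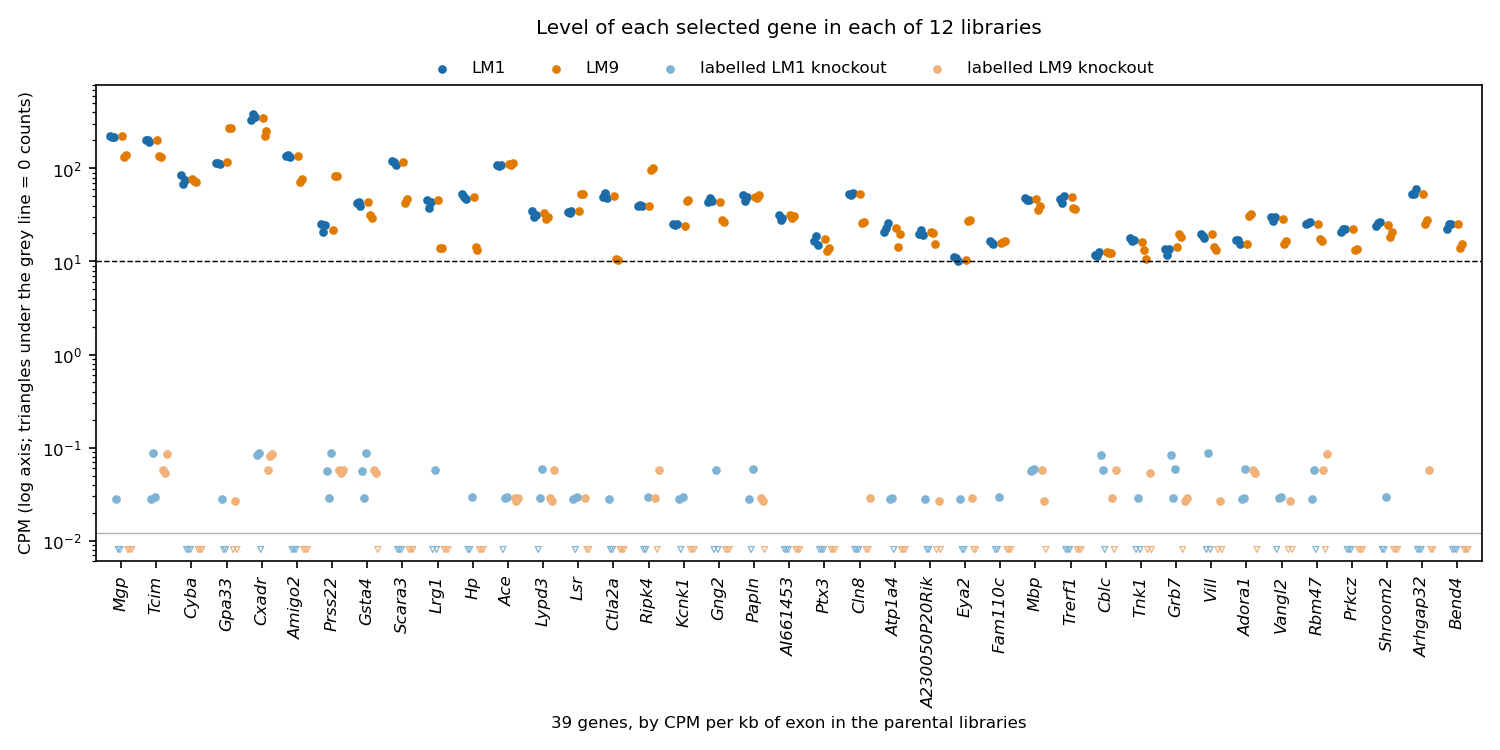
Level of 39 of the 42 selected genes in each of the 12 libraries, in CPM on a log axis, with the genes ordered by CPM per kb of exon. Every parental point lies above the dashed line at 10 CPM and every point of the libraries labelled knockout is at most 3 counts, with triangles for 0 counts. Both follow from the selection.

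Genes next to both limits of the selection were as follows. Cxadr and Prss22 lay just inside the count limit, with 14 and 12 counts over the 6 libraries labelled knockout and 3 in the highest. Alcam, an adhesion molecule, lay just outside, with 4 counts in its highest such library and at least 35.4 CPM in each parental library. On the CPM limit, Eya2 entered at 10.02 CPM and Ctla2a at 10.4 CPM in their lowest parental library, while Cybb stayed out at 9.86 CPM with 0 counts in all libraries labelled knockout, and Lad1 at 9.54 CPM.

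Promoter windows from RefSeq (GRCm38.p6, from 250 bases before to 50 after the start) were at hand for 25 of the 42 genes. Those without a window included Ripk4, Eya2, Grb7, Cxadr, Cln8, Mgp, Hp, Gsta4, Scara3, A230050P20Rik, Cblc, Mbp, Prss22 and Tcim. With under 80% matched, a comparison of promoter GC content or motifs over the set is void. Of the genes with 0 counts in every library labelled knockout, 7 had a window. The windows of 4 are shown, picked by no fixed rule, because Nfib encodes a nuclear factor I protein and the letters of its half-site can be looked for in them. They are Prkcz (chr4:155361379-155361678, minus strand), Amigo2 (chr15:97247238-97247537, minus strand), Ptx3 (chr3:66219637-66219936, plus strand) and Cyba (chr8:122432891-122433190, minus strand), each printed 5′ to 3′ on the strand of the gene. Capitals mark TTGGC and its reverse complement GCCAA.
Prkcz: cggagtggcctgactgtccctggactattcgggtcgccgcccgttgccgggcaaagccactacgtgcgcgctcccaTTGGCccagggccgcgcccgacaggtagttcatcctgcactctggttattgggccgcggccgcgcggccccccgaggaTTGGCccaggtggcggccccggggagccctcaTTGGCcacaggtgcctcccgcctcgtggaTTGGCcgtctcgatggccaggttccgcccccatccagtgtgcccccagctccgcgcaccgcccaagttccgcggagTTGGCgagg
Amigo2: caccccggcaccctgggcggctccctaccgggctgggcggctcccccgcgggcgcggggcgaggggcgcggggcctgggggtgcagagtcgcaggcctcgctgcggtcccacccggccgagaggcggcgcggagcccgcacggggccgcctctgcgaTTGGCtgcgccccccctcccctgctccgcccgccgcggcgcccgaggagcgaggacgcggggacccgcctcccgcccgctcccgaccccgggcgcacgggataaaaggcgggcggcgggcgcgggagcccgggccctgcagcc
Ptx3: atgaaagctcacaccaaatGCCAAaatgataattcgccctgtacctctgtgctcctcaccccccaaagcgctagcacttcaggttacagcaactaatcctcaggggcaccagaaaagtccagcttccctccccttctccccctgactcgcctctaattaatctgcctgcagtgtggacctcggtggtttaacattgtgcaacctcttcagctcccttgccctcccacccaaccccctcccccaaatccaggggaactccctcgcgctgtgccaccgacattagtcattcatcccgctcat
Cyba: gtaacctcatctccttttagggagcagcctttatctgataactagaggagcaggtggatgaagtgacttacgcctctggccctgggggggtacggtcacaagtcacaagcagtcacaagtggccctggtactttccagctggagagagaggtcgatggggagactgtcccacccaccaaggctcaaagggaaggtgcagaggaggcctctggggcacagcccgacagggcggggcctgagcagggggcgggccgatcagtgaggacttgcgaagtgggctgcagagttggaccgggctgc

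Prkcz held 5 of these half-sites, which began 174, 96, 64 and 35 bases upstream and 41 bases downstream of the start. Amigo2 held 1, at 93 bases upstream, Ptx3 held 1, at 231 bases upstream, and Cyba none. The 3 windows not shown, of AI661453, Bend4 and Trerf1, held 1 each. Of the 11290 windows of all genes matched, 50.9% hold the half-site. A match describes letters and is not a binding site.

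Junction, polarity and surface proteins made up 9 of the 42 genes, at 13.3 to 387 CPM in the parental libraries and with 34 counts in all over the libraries labelled knockout. Cxadr (ENSMUSG00000022865, chr16:78301489-78359774, plus strand) encodes the coxsackievirus and adenovirus receptor, an adhesion protein of tight junctions. It was at 336, 387 and 356 CPM in LM1, 348 CPM in LM9 replicate 1, and 222 and 254 CPM in LM9 replicates 2 and 3. It had 3, 3 and 0 counts in the libraries labelled LM1 knockout and 2, 3 and 3 counts in those labelled LM9 knockout. Cxadr had the most counts of any selected gene in both kinds of library, a ratio of 4818 (95% counting interval 2872 to 8814) between the levels pooled over libraries. Lsr, the angulin of tricellular junctions, was at 34.4, 33.2 and 34.8 CPM in LM1, 35.2 CPM in LM9 replicate 1, and 52.9 and 53.1 CPM in LM9 replicates 2 and 3, and so ran higher in the last pair of libraries. Its counts in the libraries labelled knockout summed to 3.

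Gpa33, an immunoglobulin-type surface antigen known from intestinal epithelium (chr1:166130238-166166510, plus strand), was at 116, 114 and 111 CPM in LM1, 117 CPM in LM9 replicate 1, and 273 and 276 CPM in LM9 replicates 2 and 3. LM9 replicates 2 and 3 stood above the other 4 libraries, and 2 of the 6 libraries labelled knockout held 1 count each. Amigo2, a leucine-rich repeat adhesion protein (chr15:97244125-97247287, minus strand), was at 135, 139.8 and 133 CPM in LM1, 136 CPM in LM9 replicate 1, and 72.3 and 77.1 CPM in LM9 replicates 2 and 3, with 0 counts in all libraries labelled knockout. Against a floor of 3 counts over those 6 libraries, its parental level, from counts and totals pooled over libraries, was at least 8182-fold higher. Lypd3, a GPI-anchored surface protein of stratified epithelia also called C4.4A, was at 35.1, 30.3 and 31.9 CPM in LM1, 32.9 CPM in LM9 replicate 1, and 28.99 and 29.7 CPM in LM9 replicates 2 and 3, and its parental groups lay close together.

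Prkcz encodes atypical protein kinase C zeta of the apical polarity complex. It was at 20.8, 22.2 and 22.4 CPM in LM1, 22.1 CPM in LM9 replicate 1, and 13.4 and 13.7 CPM in LM9 replicates 2 and 3 and at 0 counts in each library labelled knockout, at least 1352-fold higher in the parental libraries. Shroom2, an actin-binding regulator of apical cell shape, ranged over 18.2 to 26.7 CPM in the parental libraries with 1 count in the other 6 together. Vangl2, a core protein of planar cell polarity, ranged over 15.4 to 29.9 CPM, and Vill, a villin-like actin-binding protein, over 13.3 to 19.99 CPM. In Vangl2 the 3 LM1 libraries lay above LM9 replicates 2 and 3. Per kb of exon, the levels of the 9 ran from 2.79 CPM for Shroom2 to 61.1 CPM for Gpa33.

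Regulators of gene expression were 7 of the 42, and 5 of them are described here. Tcim, a small protein known as a positive regulator of Wnt signalling, had the second-highest level per length, 99.4 CPM per kb, after Mgp. It was at 203, 204 and 193 CPM in LM1, 204 CPM in LM9 replicate 1, and 138 and 134 CPM in LM9 replicates 2 and 3. All 6 libraries labelled knockout held 1 to 3 of its counts. Eya2, a transcriptional coactivator and phosphatase, was at 11.1, 11.03 and 10.02 CPM in LM1, 10.4 CPM in LM9 replicate 1, and 27.1 and 27.8 CPM in LM9 replicates 2 and 3. It was the selected gene nearest the CPM limit, and LM9 replicates 2 and 3 were above the other libraries.

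Rbm47 encodes an RNA-binding protein that acts in splicing and mRNA stability in epithelial cells. It ranged over 16.4 to 26.9 CPM in the parental libraries and had 8 counts in the others. Trerf1, a transcriptional regulator of steroidogenic genes, ranged over 36.7 to 50.7 CPM and Bend4, a BEN domain protein, over 13.96 to 25.2 CPM. These last 2 had 0 counts in every library labelled knockout, and were at least 3118-fold and 1499-fold higher in the parental libraries.

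The largest group, 10 genes, encodes secreted proteins, matrix proteins, proteases and parts of innate defence. Mgp (ENSMUSG00000030218, chr6:136872435-136875823, minus strand), the matrix Gla protein that inhibits calcification, was the highest of the 42 per length at 162 CPM per kb. It was at 225, 218 and 219 CPM in LM1, 224 CPM in LM9 replicate 1, and 132 and 139 CPM in LM9 replicates 2 and 3. A single count of Mgp was found in the 6 libraries labelled knockout.

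The acute phase proteins Hp, haptoglobin, and Lrg1, leucine-rich alpha-2-glycoprotein, divided the parental libraries alike. Hp was at 52.9, 49.1 and 46.9 CPM in LM1, 48.98 CPM in LM9 replicate 1, and 14.4 and 13.2 CPM in LM9 replicates 2 and 3. Lrg1 was at 46.2, 37.9 and 43.1 CPM in LM1, 45.7 CPM in LM9 replicate 1, and 13.9 and 14.04 CPM in LM9 replicates 2 and 3. In both genes LM1 and LM9 replicate 1 stood above the other pair without overlap. Ptx3, the long pentraxin that binds complement and microbes (chr3:66219910-66225805, plus strand), was at 16.8, 18.9 and 15.2 CPM in LM1, 17.6 CPM in LM9 replicate 1, and 12.9 and 14.04 CPM in LM9 replicates 2 and 3, with 0 counts in every library labelled knockout and at least 1128-fold higher in the parental libraries.

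Cyba encodes p22phox, the membrane subunit that stabilises NADPH oxidases (chr8:122424776-122432930, minus strand). It was at 84.7, 68.9 and 75.5 CPM in LM1, 76.9 CPM in LM9 replicate 1, and 73.9 and 71.5 CPM in LM9 replicates 2 and 3, at least 5299-fold higher than in the libraries labelled knockout, where it had 0 counts. Its parental libraries overlapped between the lines. Its catalytic partner Cybb, just outside the limit, was at 9.86 to 12.3 CPM in LM1, 11.01 CPM in LM9 replicate 1, and 43.7 and 47.7 CPM in LM9 replicates 2 and 3, also with 0 counts in all 6 others.

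Scara3, a class A scavenger receptor that responds to oxidative stress, was at 120.2, 116 and 109.9 CPM in LM1, 119 CPM in LM9 replicate 1, and 42.1 and 46.7 CPM in LM9 replicates 2 and 3. It had 0 counts in the libraries labelled knockout, so its parental level was at least 6548-fold higher. Prss22, the serine protease brain-specific serine protease 4 or tryptase epsilon, was at 25.4, 20.6 and 24.9 CPM in LM1, 21.9 CPM in LM9 replicate 1, and 83.5 and 83.3 CPM in LM9 replicates 2 and 3. The upper pair of libraries here was LM9 replicates 2 and 3. Ace, angiotensin-converting enzyme, was at 109.6, 107 and 108 CPM in LM1, 112 CPM in LM9 replicate 1, and 109 and 116 CPM in LM9 replicates 2 and 3, and these CPM overlapped between the lines. After TMM scaling and without LM9 replicate 1, Ace was called lower in LM1 (log2 difference -0.26, limma-voom adjusted p = 2.74e-05), a call lost with scaling by total counts (-0.06, adjusted p = 0.234). Papln, a papilin with Kunitz domains, ranged over 45.1 to 52.5 CPM.

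Ctla2a encodes an inhibitor related to the propeptide of cysteine proteases. It was at 49.97, 54.3 and 48.04 CPM in LM1, 50.01 CPM in LM9 replicate 1, and 10.5 and 10.4 CPM in LM9 replicates 2 and 3, and 1 count was found in the libraries labelled knockout. Its exons overlap Gm49391 and Gm49393 on the same strand, and Ctla2b is a close copy of it, so its own share of these reads is uncertain.

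Signalling proteins were 7 genes with 35 counts in all over the libraries labelled knockout, and none of them was at 0 in all 6. Ripk4 (chr16:97741933-97763787, minus strand), a kinase that drives keratinocyte differentiation, was at 39.6, 40.7 and 39.7 CPM in LM1, 39.4 CPM in LM9 replicate 1, and 97.3 and 101 CPM in LM9 replicates 2 and 3. Adora1, the adenosine A1 receptor, was at 16.8, 17.2 and 15.2 CPM in LM1, 15.6 CPM in LM9 replicate 1, and 30.7 and 32.4 CPM in LM9 replicates 2 and 3. Grb7, an adaptor that binds receptor tyrosine kinases, was at 13.7, 11.8 and 13.8 CPM in LM1, 14.2 CPM in LM9 replicate 1, and 19.5 and 18.3 CPM in LM9 replicates 2 and 3. In these 3 genes LM9 replicates 2 and 3 exceeded every other library.

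Arhgap32, a GTPase-activating protein, ranged over 25.4 to 59.6 CPM and Gng2, a G protein gamma subunit, over 26.5 to 47.9 CPM, and both were higher in LM1 than in LM9 replicates 2 and 3. Tnk1, a non-receptor tyrosine kinase, ranged over 10.6 to 17.7 CPM. Cblc, an epithelial member of the Cbl ubiquitin ligases, was within 11.4 to 12.7 CPM in all 6 parental libraries. With 8 counts in the libraries labelled knockout, Cblc had the smallest ratio of the pooled levels among the 34 selected genes with a count there, 322 (95% counting interval 163 to 748).

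Transport and metabolism accounted for 5 genes, of which 4 are described here. Kcnk1, a potassium leak channel, was at 25.2, 24.5 and 24.99 CPM in LM1, 24.4 CPM in LM9 replicate 1, and 44.4 and 46.1 CPM in LM9 replicates 2 and 3. LM9 replicates 2 and 3 were above the other libraries in Kcnk1. Cln8, an endoplasmic reticulum membrane protein of lysosomal enzyme transport, ranged over 25.8 to 54.5 CPM. Gsta4, a glutathione transferase for lipid peroxidation products, ranged over 29.6 to 43.5 CPM. Atp1a4, the sodium pump subunit best known from sperm, ranged over 14.4 to 26.1 CPM.

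The other 4 genes were Mbp, myelin basic protein, at 35.4 to 48.7 CPM, Fam110c, a protein of the FAM110 family, at 15.5 to 16.5 CPM, and the uncharacterised AI661453 at 27.8 to 31.96 CPM and A230050P20Rik at 15.6 to 22.1 CPM. Mbp is a defining gene of myelinating cells. Of the other Schwann and melanocyte markers, Gpnmb was lower in the libraries labelled knockout by the values above, and Sox10, a transcription factor of those cells, had at most 19 counts in a parental library. Their part in the values of Mbp was not tested. AI661453 had 0 counts in every library labelled knockout. In 9 of the 42 genes exon bases are shared with another gene of the files, on the opposite strand in 7 (Cxadr, Amigo2, Lypd3, Lsr, A230050P20Rik, Tnk1 and Adora1), and counting by strand is not stated.

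The selection asked for a level in both parental lines but not for any difference between them, and LM1 was set against LM9. The limit of 10 CPM in all 6 libraries did use these levels and kept out genes that were low in 1 line only, such as Cybb, so differences of genes near the limit are bounded by the choice and the counts of higher and lower genes are descriptions. With all 12 libraries no selected gene of 42 differed (limma-voom, 0 at an adjusted p under 0.05, 26 at an unadjusted p under 0.05, as were 47.7% of all genes), and 0.0055% of the 18176 genes tested did, which is 1 gene. The edgeR quasi-likelihood test also called 0 of the 42 and 0.0055% of all genes, and DESeq2 called 8 of the 42 and 31.8% of all genes. The median difference of the 42 was 0.14 on the log2 scale, LM1 minus LM9, against -0.01 for all genes.

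Without LM9 replicate 1, 35 of the 42 differed, 21 higher and 14 lower in LM1. That library was left out after its values were seen to lie with LM1, so the p-values of this fit are descriptions too. Among 18246 genes tested the same fit called 65.7%, 33.4% higher and 32.4% lower in LM1. Most genes of the files thus differed here as well, and no share is called particular to the 42. The median size of the difference was 0.49 on the log2 scale for the 42 and 0.49 for all genes. In CPM, the 3 LM1 libraries and LM9 replicates 2 and 3 did not overlap in 35 genes, 26 higher and 9 lower in LM1, and in 72.5% of all 18278 genes. Scaling by total counts in place of TMM factors called 25 higher and 8 lower, beside 42.9% higher and 22.6% lower of all genes, so the split moved for all genes too, and all 6 genes that left the lower side differed by at most 0.28 on the log2 scale.

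**Figure D2:**
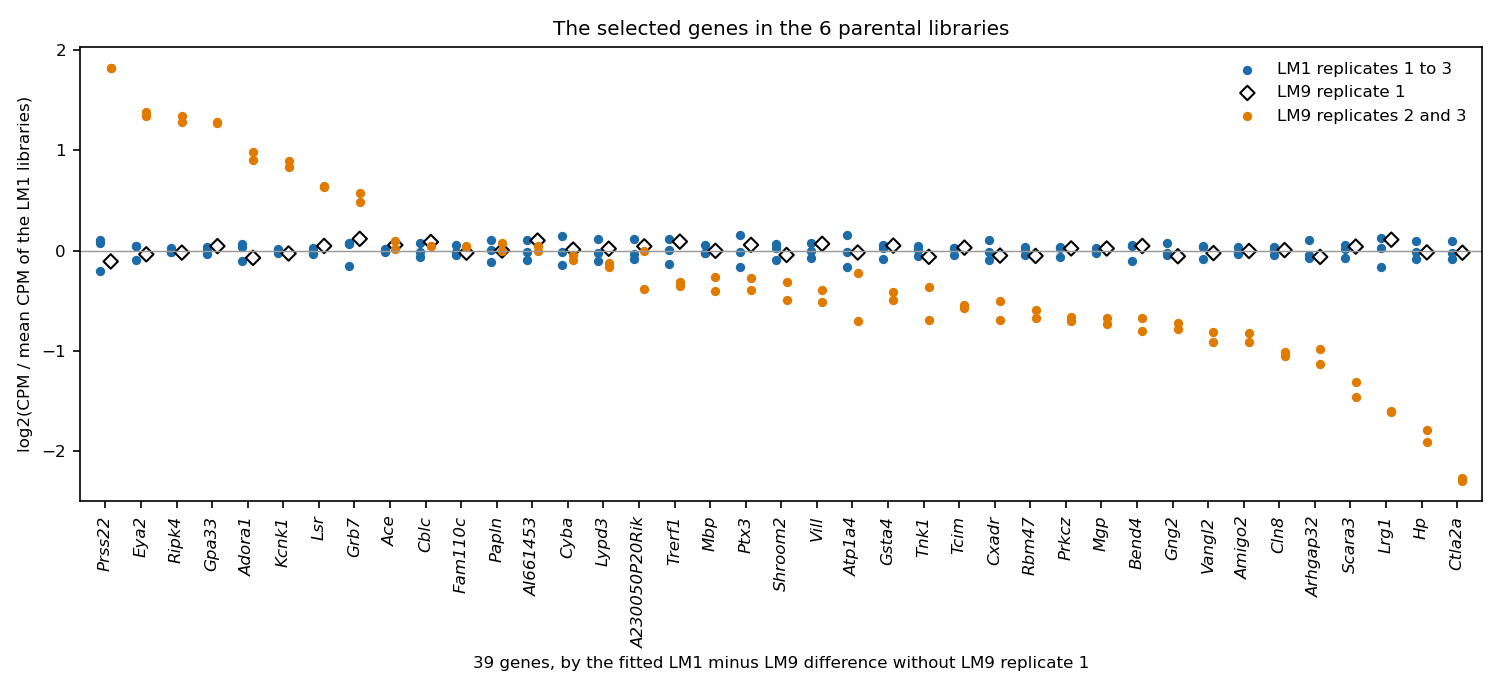
CPM of 39 of the 42 selected genes in the 6 parental libraries, as log2 of the ratio to the mean of the 3 LM1 libraries, with the genes ordered by the fitted LM1 minus LM9 difference without LM9 replicate 1. LM9 replicate 1 (open diamonds) lies near 0 with LM1 throughout, while LM9 replicates 2 and 3 run from above LM1 on the left to below it on the right.

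In the fit without LM9 replicate 1, the genes lower in LM1 by the most were Prss22 with a log2 difference of -2.03 (SE 0.06, limma-voom adjusted p = 1.21e-13), Eya2 with -1.56 (SE 0.07, limma-voom adjusted p = 9.71e-12) and Ripk4 with -1.51 (SE 0.05, limma-voom adjusted p = 1.71e-13). Gpa33 followed with -1.48 (SE 0.04, limma-voom adjusted p = 9.46e-15). Thus a protease, a coactivator, a differentiation kinase and a surface antigen stood higher in those LM9 libraries. Adora1, Kcnk1, Lsr and Grb7 were lower in LM1 by 1.14, 1.07, 0.84 and 0.74 on the log2 scale. With all libraries none of these passed and the differences were smaller, -1.30 for Prss22 (limma-voom adjusted p = 0.0608), -0.999 for Eya2 (0.0648), -0.99 for Ripk4 (0.0554) and -0.996 for Gpa33 (0.0543).

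On the other side of the same fit, Ctla2a was higher in LM1 by 2.08 (SE 0.08, limma-voom adjusted p = 7.63e-13) and Hp by 1.64 (SE 0.07, limma-voom adjusted p = 6.05e-12). Lrg1 and Scara3 were higher by 1.39 and 1.18. With all libraries the difference was 1.35 for Ctla2a and 1.07 for Hp (limma-voom adjusted p = 0.0543 for both), 0.86 for Lrg1 (0.0594) and 0.76 for Scara3 (0.0543), and none passed. The acute phase pair Hp and Lrg1 thus had the same direction, and Ptx3, the other gene of that list, had a difference of 0.13 (SE 0.08, limma-voom adjusted p = 0.167), which did not pass. The genes that did not pass were Cyba, Lypd3, A230050P20Rik, Trerf1, Mbp, Ptx3 and Atp1a4, with differences from -0.14 to 0.25 on the log2 scale.

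By role, in the fit without LM9 replicate 1, which called 33.4% of all genes higher and 32.4% lower in LM1, the 9 junction, polarity and surface genes were 6 higher and 2 lower in LM1, the 7 regulators 4 and 2, the 10 secreted, innate and matrix genes 5 and 3, the 7 signalling genes 3 and 4, the 5 transport and metabolism genes 3 and 1, and the other 4 genes 0 and 2. With all libraries each of these counts was 0.

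Lists of related genes show what else of each pathway was measured. In 11 lists, 178 genes outside the selected set were tested, and 116 (65.2%) were lower and 47 (26.4%) higher in the libraries labelled knockout, averaged over both lines, beside 40.5% lower and 46.3% higher of all genes. The lists were drawn up with earlier results of these data known, so these shares are not independent evidence of a direction. The groups labelled LM1 and LM9 knockout lay close together in such genes as Grhl3, with means of 65.6 and 66.1 CPM, and Fbln5, with 52.2 and 50.9 CPM. A difference between those groups was not tested, and the average over lines is not read as independent confirmation in each line. The named genes below passed with limma-voom adjusted p-values of at most 0.0264. Values are the lowest to highest CPM of the 6 parental libraries against those of the 6 labelled knockout.

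**Figure D3:**
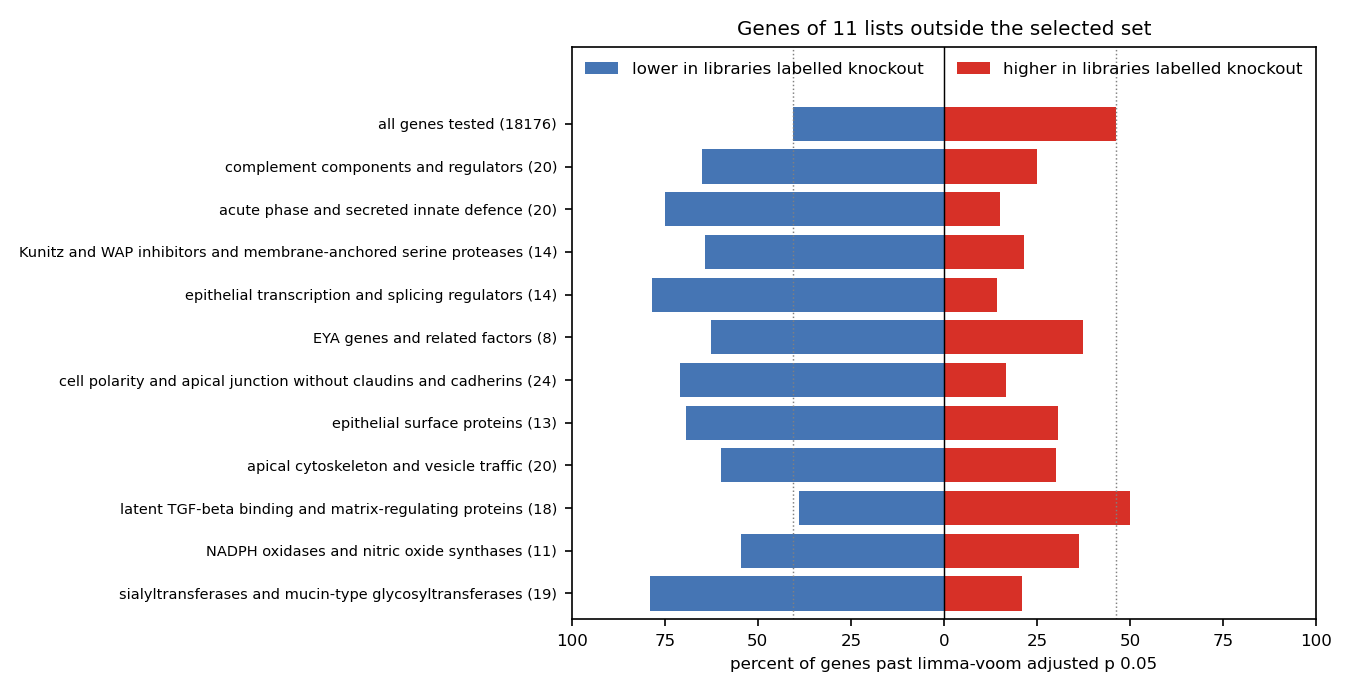
Share of genes in each of 11 lists, without the selected genes, that were lower (left) or higher (right) in the libraries labelled knockout at a limma-voom adjusted p under 0.05, with the number of genes tested in brackets. Dotted lines mark the shares of all 18176 genes, 40.5% and 46.3%, and the list of latent TGF-beta binding and matrix-regulating proteins is the one whose share on the right exceeds its line.

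Of acute phase and secreted innate defence genes, which hold Hp, Lrg1 and Ptx3, 15 of 20 others were lower and 3 higher, with a median log2 difference of -8.43 against 0.11 over all genes. Lcn2, the siderophore-binding lipocalin, was at 3365 to 4276 CPM against 1.77 to 2.41 CPM. Cp, ceruloplasmin, was at 661 to 1923 CPM against 1.03 to 1.79 CPM, and Chil1, a chitinase-like protein, at 58.01 to 968 CPM against 0.0269 to 0.166 CPM. Complement components and regulators, with no selected gene, were 13 of 20 lower and 5 higher. C3 was at 4221 to 5340.3 CPM against 2.37 to 2.75 CPM, Clu, clusterin, at 977 to 1763 CPM against 0.249 to 0.484 CPM, and C4b at 144 to 348 CPM against 0.086 to 0.572 CPM. Cd59a, a membrane inhibitor of complement, went the other way, at 0 to 0.0584 CPM against 12.6 to 14.5 CPM.

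Kunitz and WAP inhibitors and membrane-anchored serine proteases, the list of Prss22 and Papln, were 9 of 14 lower and 3 higher. Wfdc2, a WAP-domain protein, was at 1090.1 to 1196 CPM against 1.54 to 2.05 CPM, Wfdc12 at 1.57 to 13.8 CPM against 0 counts, and Prss8, prostasin, at 3.57 to 9.89 CPM against 0 to 0.0277 CPM. NADPH oxidases and nitric oxide synthases, the list of Cyba, were 6 of 11 lower and 4 higher. Besides Cybb, Nos2, the inducible nitric oxide synthase, was at 412 to 437 CPM against 0.229 to 0.776 CPM.

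Epithelial transcription and splicing regulators, with Rbm47, were 11 of 14 lower and 2 higher. The ETS factors Ehf and Elf3 were at 148 to 219 CPM against 0.0293 to 0.242 CPM and at 21.9 to 25.4 CPM against 0.172 to 0.471 CPM, and Sox15 at 6.26 to 8.83 CPM against 0 to 0.02898 CPM. Grhl3, a grainyhead factor of surface epithelium, was higher, at 0.0292 to 0.453 CPM against 64.7 to 67 CPM. In the list of EYA genes and related factors 5 of 8 others were lower and 3 higher. Eya1 was lower as well, at 7.997 to 15.7 CPM against 0 to 0.0287 CPM, whereas Eya4 was at 0 counts against 22.02 to 25.97 CPM and Dach2 at 0 counts against 15.7 to 23.9 CPM. Six4 was lower, at 27.1 to 52.8 CPM against 12.3 to 14.2 CPM, while Eya3 was higher, at 40.2 to 54.9 CPM against 63.4 to 66.6 CPM. With scaling by total counts 3 of the 8 were lower. When a library was left out, 2 to 3 were higher, and Eya3 had the largest limma-voom adjusted p of those called higher, 0.0264.

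Cell polarity and apical junction genes, with Cxadr, Prkcz and Shroom2, were 17 of 24 lower and 4 higher. The junction scaffolds Plekha7, Cgn and Tjp3 were at 9.38 to 13.1 CPM against 0 to 0.02898 CPM, at 16.9 to 24.7 CPM against 0.0572 to 0.161 CPM and at 4.51 to 10.7 CPM against 0 to 0.05795 CPM. Related proteins were higher: Jam2 at 0 counts against 16.6 to 19.6 CPM and Shroom3 at 15.3 to 17.9 CPM against 95.9 to 99.04 CPM. Epithelial surface proteins, with Lypd3 and Lsr, were 9 of 13 lower and 4 higher. Alcam was at 35.4 to 40.8 CPM against 0 to 0.111 CPM, Cdcp1 at 65.8 to 68.6 CPM against 0 to 0.116 CPM and Bcam at 85.7 to 101 CPM against 0.0878 to 0.242 CPM, while Perp, a desmosome-associated protein, was at 1.04 to 2.33 CPM against 201 to 214 CPM.

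Apical cytoskeleton and vesicle traffic genes, with Vill, were 12 of 20 lower and 6 higher. The linker protein Syne4 was at 80.5 to 92.4 CPM against 0.0807 to 0.229 CPM, the tensin Tns4 at 528 to 699 CPM against 0.753 to 1.44 CPM and the GTPase Rab17 at 15.4 to 23.4 CPM against 0.0269 to 0.174 CPM, and the actin regulator Eps8 was higher at 75.1 to 102 CPM against 294 to 300.5 CPM. Sialyltransferases and mucin-type glycosyltransferases, with no selected gene, were 15 of 19 lower and 4 higher. St3gal6 was at 30.7 to 38.7 CPM against 0 to 0.232 CPM, St8sia4 at 3.43 to 8.24 CPM against 0 counts and Galnt12 at 5.898 to 8.34 CPM against 0.0286 to 0.108 CPM, while St6galnac4 was higher at 37.8 to 41.4 CPM against 226 to 241 CPM and so was St3gal2 at 28.4 to 50.2 CPM against 59.3 to 62.3 CPM.

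Latent TGF-beta binding and matrix-regulating proteins, with Mgp and Papln, were 7 of 18 lower and 9 higher, with a median log2 difference of 2.32. The latent TGF-beta binding proteins Ltbp4 and Ltbp2 were at 205 to 246 CPM against 0.264 to 0.601 CPM and at 628 to 998 CPM against 2.14 to 2.92 CPM, and the proteoglycan Prelp at 3.53 to 22.5 CPM against 1.44 to 2.12 CPM. Fbln5, fibulin 5, was at 0 counts against 48.9 to 54.5 CPM, Emilin1, an elastic fibre protein, at 0 to 0.302 CPM against 192 to 206 CPM and Grem1, a BMP antagonist, at 0 to 0.0342 CPM against 27.4 to 29.4 CPM. Mgp and Papln therefore shared their list with genes of the opposite pattern.

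The selected genes did not lie side by side. The nearest pairs were Atp1a4 and Vangl2 on chromosome 1, with starts 230 kb apart, and Trerf1 and AI661453 on chromosome 17, with starts 296 kb apart, and no other pair was within 500 kb. Between Atp1a4 and Vangl2, 7 genes were tested, of which 6 were lower and 1, a processed pseudogene, higher in the libraries labelled knockout. Copa, a coatomer subunit between them, was at 271 to 286 CPM there. Beside Atp1a4, Casq1 was at 4.77 to 9.73 CPM against 0.0287 to 0.145 CPM and Igsf8 at 1089 to 1900.5 CPM against 75.02 to 81.4 CPM. Atp1a4 and Casq1 both had 5 counts or fewer in each library labelled knockout. Between Trerf1 and AI661453, 1 gene of 4 was lower and 3 were higher.

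The nearest tested protein-coding gene on each side of each selected gene gave 84 neighbours. Of these 39 were lower and 34 higher in the libraries labelled knockout, 46.4% and 40.5%, beside 40.5% and 46.3% of all genes. The median log2 difference of the neighbours was 0.02 and that of all genes 0.11, and the median size was 1.64 against 1.20. In the libraries labelled knockout 47 of the 84 neighbours were at 10 CPM or more in all 6, and 34 of the 42 selected genes had such a neighbour on at least 1 side. The same shares over all genes were not counted, so neither count is called particular to the selected genes. Cyba, at 0 counts, stood between Zc3h18 at 34.1 to 47.8 CPM against 73.8 to 79.1 CPM and Mvd at 8.52 to 14.9 CPM against 12.6 to 15.2 CPM, the latter 0.670 kb away.

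Both neighbours were lower for 11 of the 42 genes, 26.2%, beside 17.5% of the other protein-coding genes tested. At most 3 counts in each library labelled knockout were found in 5 neighbours, 5.95%, beside 1.82% of the other protein-coding genes. These shares were not tested. Among these, named after their values were seen, were Pced1b beside Amigo2 (8.36 to 19.2 CPM against 0 counts, sharing exon bases with it), Gabrd beside Prkcz (1.77 to 4.86 CPM against 0 to 0.02898 CPM), Ceacam10 beside Lypd3 (0.101 to 0.6998 CPM against 0 to 0.0572 CPM) and Mybph beside Adora1 (0.581 to 4.97 CPM against 0 to 0.0573 CPM, also sharing exon bases). At higher levels, Scara3 lay 14.5 kb from Clu, at 977 to 1763 CPM against 0.249 to 0.484 CPM, and Cblc lay 7.86 kb from Bcam, at 85.7 to 101 CPM against 0.0878 to 0.242 CPM. In contrast, Shroom2 lay between Gpr173 and Ubqln2, at 0 counts against 9.28 to 11.1 CPM and at 0.175 to 3.13 CPM against 85.6 to 102 CPM.

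**Figure D4:**
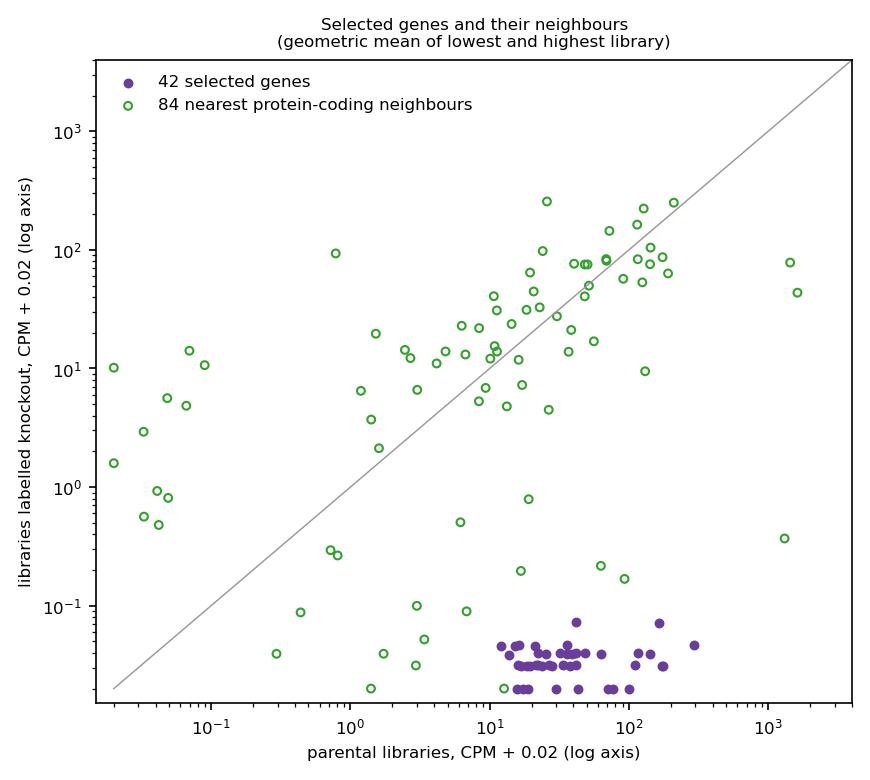
Levels of the 42 selected genes (filled) and their 84 nearest protein-coding neighbours (open) in the parental libraries and in those labelled knockout, each the geometric mean of the lowest and highest library after adding 0.02 CPM, on log axes. The diagonal marks equal levels. The selected genes fill the lower right by their choice, and the neighbours spread along and on both sides of the diagonal.

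The 42 genes had a median of 3575 exon bases against 3354 for all genes, and a longer median span on the genome, 23.8 kb against 14.96 kb. They differed in kind of transcript, since 97.6% were protein-coding against 74.0% of all genes. These are descriptions of a list picked by level, and no test was made of them.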

How the data were processed

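RNA-seq of 12 tumoursphere libraries was used. The authors deposited raw counts, whole numbers for each gene, made from stranded poly-A single-end reads aligned with STAR to mm10 and counted by read 5' ends over the exon union of each gene with QuasR. Versions, annotation release, treatment of multi-mapping reads and strand use in counting are not given in the sources used here. Counting intervals (95%, exact) and floors of 3 counts cover counting error only.

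Groups came from the sample titles. The members and lists were chosen with earlier results of these data known. Selected genes are described in CPM of library totals. Tests used limma-voom (limma 3.58.1, edgeR 4.0.16, R 4.3.3), as in the study's methods, with TMM factors, filterByExpr (minimum count 10, total 15), 1 mean per group, all 12 libraries and Benjamini-Hochberg adjustment over all genes at 0.05. DESeq2 1.42.0 and edgeR's quasi-likelihood test were alternatives. Fits without LM9 replicate 1 were added after seeing the data. On simulated LM1 against LM9 counts (17981 genes tested, log2 changes of 1, dispersion 0.01) 192 of 200 changed genes were recovered with 8 false calls. All other genes had the same mean in both simulated lines, and no simulated LM9 library was set apart from the others. The simulation checks that the code runs as meant and gives no error rates for the real LM1 and LM9 libraries.

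Genes named were the 20 highest by CPM per kb, those in a list or within 500 kb of another, the 3 largest line differences each way, the 2 genes on each side of each limit, and up to 3 others per list and direction with a mean of at least 5 CPM. Remaining members were named for completeness, and 3 members and some other genes under the rule are not reported here. Roles were assigned after values were seen. Names and coordinates came from GENCODE M21 (18268 of 18278 identifiers matched).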

Additional observations from a re-analysis of the deposited data

How the results depend on the processing

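The number of genes selected was 8 with 0 counts allowed in the libraries labelled knockout and 76 with 10 counts, 68 with a limit of 5 CPM and 23 with 20 CPM, 48 with no family dropped, and 42 to 46 when a library was left out. Genes differing between LM1 and LM9 were 0 with all libraries, 8 with DESeq2 (31.8% of all genes), 13 with total counts (28.8%), 35 with sample quality weights (63.8%) and 0 to 35 when a library was left out, the 35 without LM9 replicate 1. Total counts moved the median of all genes by 0.13 (log2) in that comparison and by 0.29 between titles. The median difference of the selected genes, 0.14, was 0.113 with DESeq2, 0.114 with median-ratio factors, 0.278 with total counts and 0.215 with quality weights, and 0.0708 to 0.223 when a library was left out. In the list of EYA genes and related factors, 5 were lower and 3 with total counts.

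Signs turned, none past the threshold, for Cyba (0.0366), A230050P20Rik (0.116) and Lypd3 (0.0853) with total counts. Leaving out a library also turned signs, over ranges of -0.115 to 0.0657 for A230050P20Rik, -0.108 to 0.00102 for Lypd3, -0.0223 to 0.138 for Ptx3 and -0.00737 to 0.126 for Trerf1, without LM1 replicate 2 (Ptx3, Lypd3), LM1 replicate 3 (A230050P20Rik, Trerf1) or LM9 replicate 2 (A230050P20Rik). The cause was not tested. The replicate numbers did not pair the libraries (r of deviations from -0.0856 to 0.0418). With the replicate block, 0 of 42 genes differed, 34 without LM9 replicate 1 (66.1% of all genes), and 117 list genes were lower. Dixon's outlier test was not run on these groups of 3 libraries.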
